A study of Mus musculus with 18 samples.

Results

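Long intergenic noncoding RNAs (lincRNAs) were followed in BV2 cells, an immortalised mouse microglial line, before and during exposure to oxyhemoglobin, the oxygen-carrying blood protein that microglia meet after bleeding into the brain. The set was taken from the deposited counts table as every row typed lincRNA whose counts summed to at least 300 over the 18 libraries, which gave 304 of the 5629 lincRNA rows and of 55487 genes in all. The members were thus chosen by their summed counts, which were not compared between groups. The rule also named 1 row to leave out, CT010467.2, which the table types as a pseudogene, so that its exclusion removed nothing. The smallest sums inside the limit were 309 for 1600002D24Rik, 307 for Gm28901 and 302 for Gm39526, and the largest outside it were 297 each for E130102H24Rik, 2010013B24Rik and 0610043K17Rik. All 304 passed the filter on low counts, and 1 of them, Gm6093, had 53% of its counts in a single group. In 20 of them the counts outside the highest group, scaled to 6 groups, stayed under 300, among them Gm6093, Gm11419, Gm10522, Gm47070, Gm29367, 9830132P13Rik, AU019990, Gm50445 and Gm29154. These 20 entered through the group in which they are high, so their differences from that group follow in part from the choice and are descriptions.

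The 6 groups, of 3 libraries each, were cells labelled KD (in full BAK1-KD) taken as controls, after 12 h and after 24 h of oxyhemoglobin at a labelled 10 mM, and cells labelled NC at the same 3 times. The dose stands as the labels give it, and its unit could not be checked against another source. All cells were plated 12 h before the treatment began, and the controls received no oxyhemoglobin and were labelled as 0 h, so that time in culture and oxyhemoglobin cannot be told apart. The labels do not say how Bak1 was lowered, how many clones the KD label stands for, or that the 3 libraries of a group were separate cultures, so p-values measure the spread between these libraries, which may be technical. Bak1, which encodes a protein that permeabilises the outer mitochondrial membrane in apoptosis, had 1 to 12 counts in each library labelled KD, 39 in all, against 0 to 7 counts in each NC library, 25 in all. A loss of Bak1 RNA was therefore not detectable in the libraries labelled KD, and the comparisons of the lines rest on the labels. Library totals were 4361313 to 6008810 counts.

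LincRNAs are transcribed by RNA polymerase II from their own genes between coding genes, and are capped and mostly spliced and polyadenylated, but encode no known protein. Some act in the nucleus on chromatin or as scaffolds of nuclear bodies, some are only carriers of microRNAs or small nucleolar RNAs that are cut from them, and for many the act of transcription, rather than the RNA, affects a neighbouring gene. In macrophages and microglia several are switched on by NF-kB and other inflammatory factors, of which the host of miR-155 and lincRNA-Cox2 are the best known.

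The lincRNAs that changed most under oxyhemoglobin were mostly ones with no assigned function. Promoters from RefSeq (build GRCm38.p6, 250 bases before to 50 bases after the start) are shown for 3 that rose and 3 that fell in both lines, the ones with the largest mean fold changes for which RefSeq had a start within 1000 bases of the GENCODE M21 start. Capitals mark matches, on either strand, to motifs of factors of inflammation and oxidative stress: AP-1 (TGANTCA), the antioxidant response element (TGACNNNGC), the interferon-stimulated response element, the cyclic AMP response element (TGACGTCA), NF-kB and the p53 half-site.
Gm6093, rising, chr13:33569268-33569567, minus strand: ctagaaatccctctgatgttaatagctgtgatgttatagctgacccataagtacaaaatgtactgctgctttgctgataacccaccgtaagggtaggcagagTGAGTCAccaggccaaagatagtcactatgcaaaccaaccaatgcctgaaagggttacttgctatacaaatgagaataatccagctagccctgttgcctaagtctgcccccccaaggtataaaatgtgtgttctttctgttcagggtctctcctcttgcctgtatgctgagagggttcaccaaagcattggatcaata
Gm34425, rising, chr9:120869711-120870010, plus strand: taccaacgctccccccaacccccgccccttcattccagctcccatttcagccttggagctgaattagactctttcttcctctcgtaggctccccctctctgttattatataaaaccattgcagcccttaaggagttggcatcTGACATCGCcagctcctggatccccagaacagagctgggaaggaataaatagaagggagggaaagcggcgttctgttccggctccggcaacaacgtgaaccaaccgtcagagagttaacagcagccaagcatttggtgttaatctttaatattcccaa
Gm35037, rising, chr7:3452060-3452359, plus strand: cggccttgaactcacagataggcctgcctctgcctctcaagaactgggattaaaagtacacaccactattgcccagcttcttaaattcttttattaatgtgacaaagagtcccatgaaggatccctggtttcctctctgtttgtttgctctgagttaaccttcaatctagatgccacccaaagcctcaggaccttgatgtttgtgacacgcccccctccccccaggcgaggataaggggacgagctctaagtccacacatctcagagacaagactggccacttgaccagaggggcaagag
AU019990, falling, chr2:132597946-132598245, plus strand: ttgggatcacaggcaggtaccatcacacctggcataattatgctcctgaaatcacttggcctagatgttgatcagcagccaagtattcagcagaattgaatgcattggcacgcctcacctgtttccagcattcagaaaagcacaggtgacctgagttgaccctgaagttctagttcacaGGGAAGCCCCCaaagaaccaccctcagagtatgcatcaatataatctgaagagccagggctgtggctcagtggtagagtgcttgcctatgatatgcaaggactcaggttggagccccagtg
Gm29154, falling, chr9:103960091-103960390, minus strand: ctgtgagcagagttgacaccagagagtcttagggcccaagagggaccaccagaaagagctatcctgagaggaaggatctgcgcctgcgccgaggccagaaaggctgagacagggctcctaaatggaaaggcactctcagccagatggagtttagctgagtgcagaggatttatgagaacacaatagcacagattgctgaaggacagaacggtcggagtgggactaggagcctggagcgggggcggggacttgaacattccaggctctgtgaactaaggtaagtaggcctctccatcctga
A330074K22Rik, falling, chr8:120228181-120228480, minus strand: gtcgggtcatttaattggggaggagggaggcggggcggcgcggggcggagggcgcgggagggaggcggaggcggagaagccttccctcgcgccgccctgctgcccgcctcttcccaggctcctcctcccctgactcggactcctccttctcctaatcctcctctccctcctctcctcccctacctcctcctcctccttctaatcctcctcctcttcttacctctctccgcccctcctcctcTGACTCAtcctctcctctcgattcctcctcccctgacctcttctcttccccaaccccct
The Gm6093 promoter held 1 AP-1 match that began 148 bases before the start, and that of A330074K22Rik held 1 that began 9 bases before it. The Gm34425 promoter held 1 antioxidant element match 108 bases before the start, and that of AU019990 held 2 overlapping NF-kB matches 71 and 70 bases before it. The promoters of Gm35037 and Gm29154 held none of these letters in this window. Of all 32851 promoters of that length, 7.81% held the AP-1 motif, 12.4% the antioxidant element, 8.46% the NF-kB motif, 3.44% the interferon-stimulated element, 1.79% the cyclic AMP element and 8.36% the p53 half-site. Among the 113 lincRNAs with such a promoter, the shares were 13.3% for AP-1, 9.73% for the antioxidant element, 7.96% for NF-kB, 2.65% for the interferon-stimulated element, 4.42% for the cyclic AMP element and 6.19% for the p53 half-site. Motif matches describe letters and do not show that a factor bound there.

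The 304 lincRNAs held 1.81% to 3.54% of the counts of a library. Malat1, which marks nuclear speckles, Xist, which coats the inactive X chromosome, and Neat1, the scaffold of paraspeckles, together held 77.1% of the lincRNA counts. On the deposited TPM scale, which divides by gene length and so allows levels to be compared between genes, the median of the mean levels was 9.86 TPM, with 9 lincRNAs over 100 TPM and 155 under 10 TPM. Malat1 averaged 2712 TPM, Mir142hg 486 TPM, Xist 393 TPM, 2900097C17Rik 258 TPM, Neat1 216 TPM, AU022793 207 TPM, Gm42047 163 TPM, 4833427F10Rik 137 TPM, Gm49959 101 TPM and Gm36211 98.0 TPM. 2900097C17Rik is Norad, a cytoplasmic RNA that binds Pumilio proteins. These TPM values are shares of libraries in which the single row CT010467.2 took 36.2% to 56.1%, so they understate the share among the other genes.

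Malat1, Xist and Neat1 also carried a difference between libraries that the groups do not explain. Their summed share of counts was 2.25% to 2.91% in the 6 libraries numbered 2 and 1.32% to 2.14% in the other 12, and in 6 of 6 groups the library numbered 2 was the highest. The same libraries had the lowest score on the second principal component of all genes in 6 of 6 groups. Malat1 had 13674, 17931 and 11266 CPM (counts scaled to a common library size, here with TMM factors) in the libraries labelled KD at 24 h, against 10382, 14541 and 8667 CPM in their controls, and the second value is the highest in both groups. All other lincRNAs together made up 5174 to 6245 CPM. BV2 cells carried 11 of 12 microglial and macrophage markers (Sall1 at 0), which summed to 527 to 938 CPM, while markers of astrocytes, neurons, oligodendrocytes, red cells, fibroblasts and endothelium summed to at most 13.5 CPM a list. Microglial sums were 813 to 859, 788 to 938 and 625 to 710 CPM with the KD label at control, 12 and 24 h. In NC they were 583 to 703, 643 to 705 and 527 to 566 CPM, without overlap between the lines at any time. Some of the low sums also moved with the groups. The oligodendrocyte list summed to 6.22 to 8.3 CPM in controls and 2.09 to 3.87 CPM at 12 h with the KD label. The astrocyte list summed to 3.12 to 4.93 CPM in controls and 6.8 to 8.75 CPM at 12 h in NC. In the other line of each, these groups overlapped. The fibroblast and endothelium list (5 of 6 genes with a count, Col1a2 at 0) summed to 3.32 to 6.08 CPM in controls, 4.52 to 8.59 CPM at 12 h and 6.98 to 13.5 CPM at 24 h with the KD label, and to 1.48 to 2.65, 5.38 to 6.8 and 6.94 to 8.08 CPM in NC. The neuron list (2 of 5 genes with a count, Rbfox3, Snap25 and Syt1 at 0) summed to 3.13 to 10.5 CPM over the libraries labelled KD and 0.716 to 3.05 CPM over NC. The part of these sums in the results was not tested. In bulk RNA, fewer cells that express a gene and less RNA per cell cannot be told apart.

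A larger share of the lincRNAs than of all genes tested passed the test against control, in both lines and at both times. After 12 h, 70 of 304 (23.0%) differed from control in the libraries labelled KD, 35 higher and 35 lower, beside 7.93% higher and 8.06% lower, in all 16%, of the 15996 genes tested. In NC libraries at 12 h it was 57 (18.8%), 28 higher and 29 lower, beside 6.69% higher and 5.55% lower (12.2%) of all genes. After 24 h, 49 (16.1%) differed in the libraries labelled KD, 30 higher and 19 lower, beside 5.5% higher and 4.08% lower (9.58%) of all genes. In NC libraries at 24 h it was 47 (15.5%), 37 higher and 10 lower, beside 4.66% higher and 2.91% lower (7.57%). Calls here and below are those of edgeR's quasi-likelihood F test at a Benjamini-Hochberg adjusted p of 0.05. Among the 12125 other genes with summed counts of at least 300, the shares called were 18.3% and 10.9% with the KD label and 14.2% and 8.64% with NC, at 12 h and 24 h. The median log2 fold change of the 304 was near 0 in each: -0.01 at both times with the KD label, and -0.09 and 0.04 in NC cells, beside 0.0038, -0.0007, -0.0082 and 0.0014 over all genes. Without the 20 lincRNAs that entered through their highest group, the shares were 21.5% and 14.4% with the KD label and 17.3% and 14.1% in NC. With the library number as a block the counts were 111 and 88 with the KD label (36.5% and 28.9%, beside 28.7% and 21.5% of all genes) and 97 and 87 in NC (31.9% and 28.6%, beside 24.7% and 18.9%). Leaving out library 3 of the NC controls gave 30 in NC at 24 h, and without the 6 libraries numbered 2 the counts were 45 and 27 with the KD label (14.8% and 8.88%, beside 12.4% and 7.01%) and 43 and 26 in NC (14.1% and 8.55%, beside 9.56% and 5.13%).

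**Figure D1:**
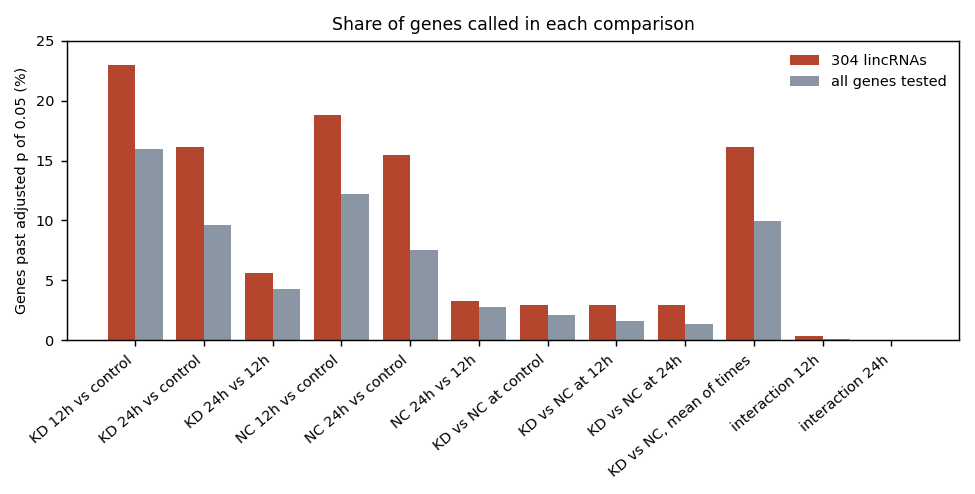
Share of genes past an adjusted p of 0.05 (y axis, percent) in each of 12 comparisons (x axis), for the 304 lincRNAs (left bar of each pair) and all 15996 genes tested (right bar). Between 3.29% and 23.0% of the lincRNAs were called in the comparisons of times, and 2.96% in each comparison of the lines at 1 time.

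The lines, which share no library, gave the same direction wherever both called a lincRNA, and nearly always did so over all genes. At 12 h, 21 lincRNAs were higher in both, 60.0% of those higher with the KD label and 75.0% of those higher in NC. A further 22 were lower in both, 62.9% of those lower with the KD label and 75.9% of those lower in NC. At 24 h, 20 were higher in both (66.7% and 54.1%) and 8 lower in both (42.1% and 80.0%), and at neither time was a lincRNA higher in one line and lower in the other. Over all genes tested, 60.0% and 71.2% of the genes higher with the KD label and in NC at 12 h were higher in both, and 51.7% and 75.1% of those lower. At 24 h they were 55.9% and 66.0% of the genes higher and 45.9% and 64.4% of those lower. Only 5 genes at 12 h and 1 at 24 h were called higher with the KD label and lower in NC, and 0 the other way. The lincRNA shares lay on both sides of these, so the sharing does not set the lincRNAs apart. At 12 h the shared lincRNAs include Gm6093, Gm11419, Gm29367, AU019990, Gm50445 and Gm29154, and at 24 h Gm10522, Gm47070, AU019990 and Gm50445. These entered the set through a group compared there, so their calls in that line are descriptions with no test. Shares without them were not computed. The 13 lincRNAs higher in all 4 comparisons with control were Gm6093, Gm31522, Gm11419, Mir155hg, Ptgs2os2, Gm34425, Gm35037, Gm10522, A230028O05Rik, C030034L19Rik, 4933432I03Rik, Gm34643 and Gm32856. The 7 lower in all 4 were AU019990, Gm50445, B230312C02Rik, Gm13391, Gm9949, Gm36211 and 5031425F14Rik. Among them, Gm6093, Gm11419, Gm10522, AU019990 and Gm50445 entered through 1 of the groups compared, so their calls with that group are descriptions only. Within a line, the calls at 12 h and 24 h share the controls and are not independent. In all, without the block, 106 lincRNAs were called in some comparison of times, 50 in some comparison of the lines, and 176 in none of the 12. With the block, the KD label at 12 h against control alone gave 111. The lines on average gave 89 with it, though the library numbers did not pair there by the check used. The same tallies were made neither with the block nor over all genes, so they describe the set in 1 fit and do not set it apart.

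**Figure D2:**
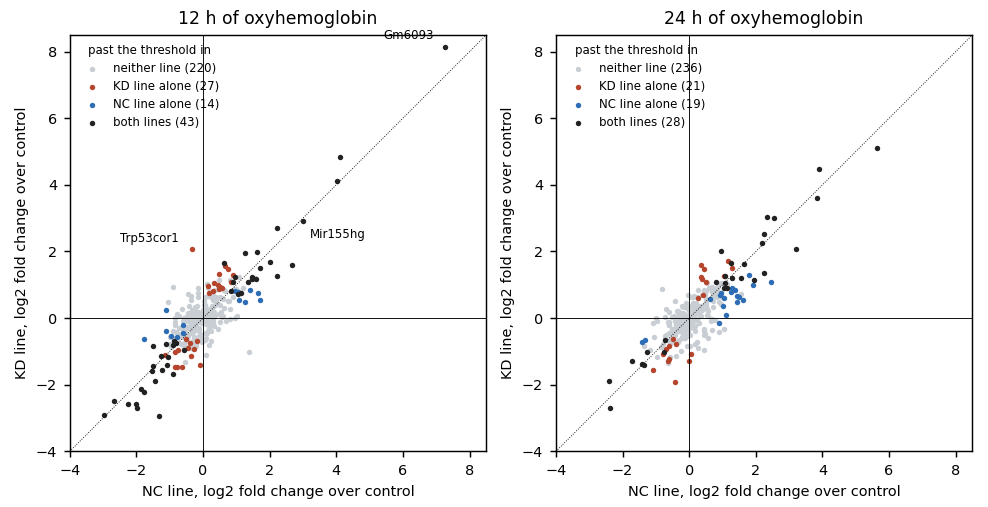
Log2 fold change over control of the 304 lincRNAs in cells labelled KD (y axis) against NC cells (x axis), at 12 h (left) and 24 h (right); colours give the line or lines in which the adjusted p passed 0.05, and the dotted line marks equal change. The 43 and 28 lincRNAs called in both lines lie at the upper right and lower left; Gm6093, at 0 or 1 count in controls, is drawn at its fitted value, which is not a bound.

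Of the lincRNAs that rose, Gm6093 was near absent without oxyhemoglobin. It holds 381 counts in all, and 179 without NC at 12 h, so it is in the set through that group and its NC values are given with no test. It lies on the minus strand of chr13:33562486-33569317 (GRCm38), and the nearest coding gene, Serpinb9g, of the protease inhibitor family, is 66.5 kb away and was too low to test. In the libraries labelled KD it had 0 CPM in all 3 controls, 5.6, 10.3 and 4.82 CPM at 12 h and 0.698, 0.626 and 1.19 CPM at 24 h. In NC libraries it had 0, 0.164 and 0 CPM in controls, 15.5, 13.1 and 11.8 CPM at 12 h and 7.07, 3.94 and 2.2 CPM at 24 h. Every treated library was above every control, and 12 h was above 24 h in both lines. With the KD label the 12 h libraries held 105 counts and the controls 0, at least 38.0-fold higher when the 0 is set to 3 counts over the group. NC libraries held 202 counts at 12 h and 61 at 24 h, against 1 in controls. From 12 h to 24 h it fell by 3.05 on the log2 scale with the KD label (edgeR adjusted p = 0.000667).

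Gm31522 and Gm11419, beside the chemokine genes Ccl2 and Ccl7, rose together. They lie on opposite strands of chr11:81983119-82019967 and chr11:81985406-81988769, and share 38.6% and 43.0% of their exon bases, so that without strand their reads cannot be told apart there. Gm31522 had 0, 0.76 and 0 CPM in controls, 11, 6.26 and 11.3 CPM at 12 h and 8.38, 6.26 and 7.12 CPM at 24 h in the libraries labelled KD. In NC libraries it had 0.832, 1.32 and 0.814 CPM in controls, 17.5, 17.5 and 18 CPM at 12 h and 17.4, 15.9 and 12.7 CPM at 24 h. No treated library overlapped a control, and the log2 fold changes were 4.85 ± 0.51 and 4.47 ± 0.52 with the KD label and 4.10 ± 0.41 and 3.89 ± 0.41 in NC cells at 12 h and 24 h (± SE; edgeR adjusted p at most 2.58e-06). The KD controls held 0, 5 and 0 counts, so the size of the KD changes rests on library 2 of the controls: over the alternatives they ranged from 4.35 to 8.74 at 12 h and from 3.96 to 8.23 at 24 h, highest without the libraries numbered 2, and none of these is a bound. Gm11419 had 54 counts at 12 h and 38 at 24 h with the KD label against 3 in controls, ratios of 19.5 (exact 95% interval 6.33 to 97.6) and 13.8 (4.39 to 70.1), where intervals cover counting error only. In NC, through which it entered the set, it held 114 counts at 12 h. Ccl2, which draws monocytes, is 15.6 kb from Gm31522 and rose by 3.05 and 2.83 log2 with the KD label and 3.19 and 2.89 in NC. Ccl7, a related monocyte chemokine, is 25.7 kb from Gm31522 and rose by 7.18 and 6.74 with the KD label and 6.31 and 5.79 in NC, all past the threshold.

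Mir155hg, the host of miR-155, a microRNA induced in activated macrophages and microglia, rose in both lines. It lies on chr16:84703167-84715245, plus strand, and RefSeq gives the mature microRNAs cut from it as follows, with the seed (bases 2 to 8), by which targets are chosen, in capitals.
miR-155-5p: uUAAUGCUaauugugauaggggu
miR-155-3p: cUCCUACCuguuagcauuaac
The host RNA, not the mature microRNA, was measured here. It had 0.213, 1.22 and 0.622 CPM in controls, 4.09, 8.84 and 3.77 CPM at 12 h and 5.76, 8.55 and 4.27 CPM at 24 h with the KD label. NC libraries had 1.04, 0.658 and 1.02 CPM in controls, 3.81, 11.8 and 5.92 CPM at 12 h and 3.79, 6.94 and 3.12 CPM at 24 h. Treated libraries were all above the controls, and the library numbered 2 was the highest of the 3 in each treated group. The log2 fold changes were 2.90 ± 0.57 and 3.05 ± 0.57 with the KD label and 2.99 ± 0.55 and 2.35 ± 0.57 in NC (edgeR adjusted p = 0.000817, 0.000776, 0.000548 and 0.0104). The NC call at 24 h was lost when library 2 of the controls, library 2 of 24 h or all libraries numbered 2 were left out, with adjusted p up to 0.0925.

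Of the 11 lincRNAs that hold an annotated microRNA on their strand, 1 (Mir155hg) was called in NC cells against control at each time, beside 12.2% and 7.57% of all genes, a share near that of all genes. With the KD label, Mir155hg rose at both times, Mir142hg rose at 24 h by 0.70 ± 0.17 log2 (edgeR adjusted p = 0.00699) and Mir17hg fell at 12 h by 0.74 log2 (edgeR adjusted p = 0.0493). Mir142hg, whose miR-142 is specific to blood-derived cells, had 87.3, 78 and 101 CPM at 24 h against 58.7, 54.2 and 50.6 CPM in controls with the KD label, with no overlap, and its adjusted p was 0.0539 when library 3 of KD at 24 h was left out. Mir17hg, the host of the growth-promoting miR-17 to miR-92 cluster, had 27.3, 37.6 and 27.9 CPM at 12 h against 51.7, 64.7 and 37.9 CPM in controls, and its call was lost in 7 of 13 alternatives. With the library number as a block, Mir142hg was also called at 24 h in NC (0.41 ± 0.11 log2, edgeR adjusted p = 0.00547) and at 12 h with the KD label (0.29 ± 0.11, adjusted p = 0.048). The 7 mature sequences shown for these hosts fall into 5 seeds, of which miR-17 and miR-20a share one and miR-19a and miR-19b another.
miR-142a-5p: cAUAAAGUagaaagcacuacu
miR-142a-3p: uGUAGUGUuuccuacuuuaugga
miR-17-5p: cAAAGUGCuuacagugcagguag
miR-20a-5p: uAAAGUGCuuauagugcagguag
miR-19a-3p: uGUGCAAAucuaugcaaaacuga
miR-19b-3p: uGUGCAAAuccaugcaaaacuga
miR-92a-3p: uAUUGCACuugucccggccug
The other microRNA hosts were Ftx, Snhg10, Snhg20, 6720427I07Rik (which holds let-7a, let-7d and let-7f), 4833445I07Rik, 2900076A07Rik, Gm26532 and Gm27019, and none passed the test against control, though with the block Snhg20 fell by 0.69 log2 at 24 h with the KD label (edgeR adjusted p = 0.0262) and Snhg10 rose by 0.92 ± 0.29 at 24 h in NC (edgeR adjusted p = 0.0186). Among the 4 tested microRNA hosts on the list that the table does not type as lincRNA, Mir22hg, the host of miR-22, rose by 2.39 and 1.48 log2 at 12 h and 24 h with the KD label and by 1.79 and 0.59 in NC.

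Ptgs2os2, known as lincRNA-Cox2, a macrophage RNA that is induced through NF-kB and regulates immune genes in mouse cells, also rose. It lies on the minus strand of chr1:150159043-150164948, 50.8 kb from Ptgs2, which encodes cyclooxygenase 2. It had 7.44, 10.3 and 4.77 CPM in controls, 28.4, 30.0 and 30.8 CPM at 12 h and 30.2, 35 and 26.3 CPM at 24 h with the KD label. NC libraries had 6.86, 15.1 and 14.6 CPM in controls, 25.8, 33.5 and 29.8 CPM at 12 h and 15.6, 23.5 and 32.1 CPM at 24 h. The groups did not overlap, though the lowest NC library at 24 h stood just above the highest control. The log2 fold changes were 1.96 ± 0.30 and 2.00 ± 0.30 with the KD label and 1.27 ± 0.28 and 0.96 ± 0.29 in NC, and the last (edgeR adjusted p = 0.0408) was lost in 6 of 13 alternatives, with adjusted p up to 0.287. Ptgs2 rose by 3.94 and 3.26 log2 with the KD label and by 3.64 and 2.81 in NC. Of the 9 tested genes on the innate immune list, which holds Ptgs2os2, Mir155hg, Mir142hg, Neat1 and Morrbid among the 304, 3 rose and 1 fell at 12 h in each line, and 4 rose with the KD label and 3 in NC at 24 h, with 1 fall in each. All genes were called higher in 7.93% and lower in 8.06% at 12 h with the KD label, and in 6.69% and 5.55% in NC. At 24 h these shares were 5.5% and 4.08% with the KD label and 4.66% and 2.91% in NC. The fall was that of Dnmt3aos, which the table does not type as lincRNA.

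Other rising lincRNAs were low in level. Gm35037, on chr7:3451357-3475020, plus strand, had 10.5, 9.58 and 9.0 CPM at 12 h with the KD label, against 1.91, 1.67 and 0.829 CPM in controls, and 10.5, 10.4 and 8.49 CPM at 12 h in NC, against 2.5, 1.97 and 1.83 CPM. It rose by 2.69 ± 0.35 log2 with the KD label and 2.21 ± 0.33 in NC. Its nearest coding gene, Tarm1, a receptor of myeloid cells 11.5 kb away, rose by 2.68 and 2.48 at the same time. Gm10522, on chr1:170981944-170986466, plus strand, is divergent from Fcgr2b, the inhibitory receptor for IgG, at a gap of 5.40 kb. It had 8.2, 8.97 and 5.46 CPM at 24 h with the KD label, against 0.638, 1.06 and 1.04 CPM in controls, and 6.31, 4.69 and 8.99 CPM in NC, against 1.25, 1.64 and 0.407 CPM. Gm10522 is in the set through the KD label at 24 h, so its rise there, of 3.0 log2, is a description with no test. In NC it rose by 2.54 ± 0.46 at 24 h, and Fcgr2b rose by 1.51 with the KD label and 1.56 in NC.

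**Figure D3:**
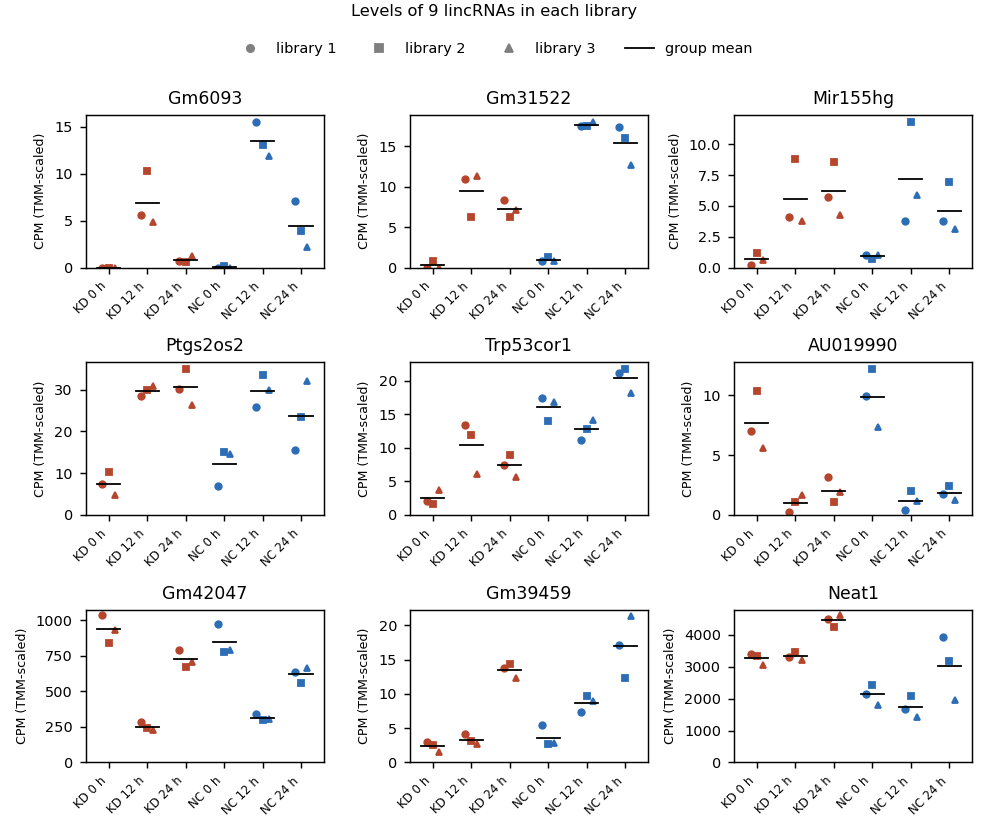
CPM on TMM-scaled library sizes (y axis, linear from 0, a scale per panel) of 9 lincRNAs in each of the 18 libraries, by group (x axis, 0 h being the control); symbols mark the library number and bars the group mean of 3. Gm6093, Gm31522, Mir155hg and Ptgs2os2 were higher in treated libraries, AU019990 was lower, Gm42047 was lower at 12 h than at 24 h, and Trp53cor1 and Neat1 differed between the labels.

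A run of 5 neighbours on chromosome 9 rose together at 24 h. The largest of 29 clusters of lincRNAs with gaps of at most 50 kb, which hold 66 of the 304, spans 47.6 kb of chr9:120834363-120881972 and holds Gm39459, Gm19385, Gm34425, Gm47070 and Gm39460. All 5 were higher at 24 h in both lines. Gm39459, on the plus strand, had 2.98, 2.58 and 1.45 CPM in controls, 4.09, 3.13 and 2.72 CPM at 12 h and 13.8, 14.4 and 12.3 CPM at 24 h with the KD label. In NC it had 5.41, 2.63 and 2.85 CPM in controls, 7.4, 9.66 and 8.89 CPM at 12 h and 17.2, 12.4 and 21.3 CPM at 24 h. At 24 h no library overlapped a control. Its log2 fold changes at 24 h were 2.51 ± 0.32 with the KD label and 2.23 ± 0.31 in NC (edgeR adjusted p = 9.68e-06 and 3.68e-05). Gm34425 rose at 24 h by 2.07 ± 0.46 with the KD label and 3.22 ± 0.53 in NC, Gm47070 by 2.27 ± 0.55 and 2.18 ± 0.58, Gm39460 by 1.27 ± 0.31 and 1.07 ± 0.32, and Gm19385 by 0.91 ± 0.29 and 1.03 ± 0.28. Gm47070 shares 33.4% of its exon bases with Gm34425 on the other strand. It is in the set through the KD label at 24 h, so its rise there is a description with no test. The nearest coding gene of all 5, Ctnnb1, which encodes beta-catenin, had log2 fold changes of 0.23 with the KD label and 0.14 in NC at 24 h and was not called there. At 12 h it rose by 0.58 ± 0.18 with the KD label (edgeR adjusted p = 0.0311) and had 0.15 ± 0.18 in NC (adjusted p = 0.693). Of the 5 lincRNAs only Gm34425 was called at 12 h in both lines, by 1.60 ± 0.47 with the KD label and 2.67 ± 0.55 in NC. Gm39459, Gm19385 and Gm39460 were also called higher at 12 h in NC, by 1.27, 0.96 and 1.42 log2, and not with the KD label.

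The lincRNAs that fell at 12 h included some of the most abundant. Gm42047, with no assigned role, lies on the plus strand of chr8:121833247-121841178 within the annotated span of Gm20388. It had 1036, 840.4 and 936 CPM in controls, 282, 241 and 229 CPM at 12 h and 795, 671 and 710.1 CPM at 24 h with the KD label. NC libraries had 978, 778 and 791 CPM in controls, 342, 296 and 306 CPM at 12 h and 637, 561 and 663 CPM at 24 h. The 12 h libraries were far below all others in both lines. It fell by 1.90 log2 with the KD label and by 1.43 in NC at 12 h, and from 12 h to 24 h it rose by 1.53 ± 0.15 with the KD label and 0.98 ± 0.15 in NC (edgeR adjusted p at most 0.000502). Gm36211 fell at both times, by 0.74 and 1.03 log2 with the KD label and by 0.81 and 0.74 in NC.

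AU019990 and Gm50445 were low at both times of treatment. AU019990, on the plus strand of chr2:132598195-132653068, had 7.02, 10.3 and 5.6 CPM in controls, 0.215, 1.11 and 1.68 CPM at 12 h and 3.14, 1.04 and 1.9 CPM at 24 h with the KD label. In NC it had 9.98, 12.2 and 7.32 CPM in controls, 0.449, 1.97 and 1.19 CPM at 12 h and 1.77, 2.44 and 1.28 CPM at 24 h. No treated library reached a control. It fell by 2.91 and 1.89 log2 with the KD label and by 2.97 and 2.41 in NC. AU019990 is in the set through the NC controls, so its falls in NC are descriptions with no test. The KD call at 24 h was lost when library 2 of the controls, library 2 of 24 h or all libraries numbered 2 were left out, with adjusted p up to 0.180. Gm50445, on chr19:23418343-23430928, plus strand, lies within Mamdc2 on the opposite strand with no shared exon base. It fell by 2.50 and 2.68 with the KD label and by 2.68 and 2.38 in NC, where Mamdc2, which encodes a secreted proteoglycan, fell by 2.28 and 3.37, and by 2.30 and 2.00. Gm50445 is in the set through the controls labelled KD, so its falls with that label are descriptions with no test.

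Other lincRNAs also fell at 12 h. B230312C02Rik had 20.4, 17.5 and 11.6 CPM in controls, 3.01, 3.32 and 1.88 CPM at 12 h and 9.08, 8.97 and 6.17 CPM at 24 h with the KD label. Its log2 fall was 2.58 at 12 h and 1.02 at 24 h with the KD label, and 2.26 and 1.26 in NC. From 12 h to 24 h it rose by 1.55 ± 0.37 with the KD label (edgeR adjusted p = 0.0135, lost in 4 of 13 alternatives with adjusted p up to 0.0874), and its NC change of 1.00 ± 0.37 passed only with the block (adjusted p = 0.193, and 0.0176 with it). 4930516B21Rik, which starts 113 bases from the start of Exog, a mitochondrial nuclease gene, had 11.1, 9.27 and 4.98 CPM in controls, 1.72, 1.11 and 1.05 CPM at 12 h and 5.24, 5.21 and 7.36 CPM at 24 h with the KD label. It fell at 12 h by 2.70 with the KD label and 1.99 in NC, and from 12 h to 24 h rose by 2.18 ± 0.41 with the KD label, and by 1.30 ± 0.34 in NC, where the call was lost in 7 of 13 alternatives. Exog had log2 fold changes of -0.14 with the KD label and -0.22 in NC at 12 h and was not called. Acvr2b, which encodes an activin receptor and lies 5.28 kb away, fell at 12 h by 1.97 with the KD label and 1.28 in NC (edgeR adjusted p = 0.000102 and 0.00365). Lockd, downstream of the cell cycle inhibitor gene Cdkn1b, had 18.7, 27.3 and 12.9 CPM in controls, 3.87, 5.53 and 3.14 CPM at 12 h and 10.6, 16.3 and 11.2 CPM at 24 h with the KD label. Lockd fell by 2.22 with the KD label and 1.76 in NC at 12 h and rose by 1.58 ± 0.33 from 12 h to 24 h with the KD label, while its NC change of 1.05 ± 0.32 had an edgeR adjusted p of 0.085, and 0.00302 with the block. A330074K22Rik, Gm29154, Gm49980, Gm13391 and Gm9949 also fell at 12 h in both lines, by 2.14, 2.58, 2.94, 1.44 and 0.83 log2 with the KD label and by 1.86, 2.02, 1.31, 1.51 and 1.51 in NC. Gm29154 is in the set through the controls labelled KD, so its fall with that label is a description with no test.

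**Figure D4:**
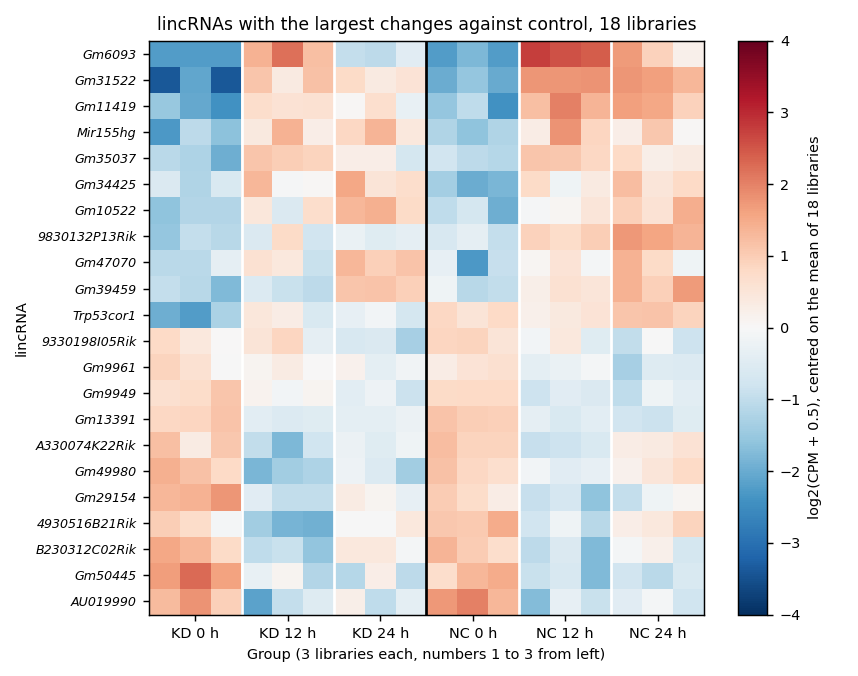
log2(CPM + 0.5), centred on the mean of the 18 libraries (colour), of the 22 lincRNAs named for the largest changes against control (rows), in libraries labelled KD (left of the black line) and NC (right) at 0 h, 12 h and 24 h (columns). The upper rows are higher and the lower rows lower in treated libraries of both lines, while Trp53cor1 is lowest in the controls labelled KD.

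Fewer lincRNAs differed between 24 h and 12 h. With the KD label 17 did (5.59%, beside 4.28% of all genes), 14 higher and 3 lower at 24 h, beside 2.81% higher and 1.46% lower. In NC 10 did (3.29%, beside 2.76%), 9 higher and 1 lower, beside 1.63% and 1.13%. With the library number as a block the counts were 33 and 41 (10.9% and 13.5%, beside 12.3% and 11.5% of all genes). The KD count was 9 when library 3 of 12 h, or library 1 or 2 of 24 h, was left out. In NC, leaving out library 1 or 3 of 12 h gave 5 or 3, and leaving out library 1, 2 or 3 of 24 h gave 6, 5 or 5. In both lines 4 were higher at 24 h, 28.6% of those higher with the KD label and 44.4% of those higher in NC. Over all genes these shares were larger, 38.0% and 65.5%. Gm6093 was lower in both, 1 of 3 with the KD label and 1 of 1 in NC, beside 42.3% and 55.0% shared over all genes. Neat1 was higher in NC at 24 h than at 12 h, 3943, 3187 and 1951 against 1668, 2085 and 1438 CPM, by 0.81 ± 0.20 log2 (edgeR adjusted p = 0.0287), with no such call with the KD label and a call lost in 6 of 13 alternatives.

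Between the lines, the label went with few lincRNAs at any 1 time and with more over the 3 times together, and these directions rest on labels that the Bak1 counts did not bear out. At control, 9 of 304 differed (2.96%, beside 2.06% of all genes), 3 higher and 6 lower with the KD label, beside 0.763% and 1.3%. At 12 h it was 9 (2.96%, beside 1.6%), 5 higher and 4 lower, beside 0.5% and 1.1%. At 24 h it was 9 (2.96%, beside 1.39%), 0 higher and 9 lower, beside 0.469% and 0.925%. DESeq2 called 15 at control and 15 at 24 h. With the library number as a block the count at 12 h was 45 (14.8%, beside 10.8%). These small counts turned on single libraries. At control the count was 3 or 5 when library 1 or 2 with the KD label was left out, and 5 or 4 when library 2 or 3 of NC was. At 12 h it was 4, 4 or 5 when library 1, 2 or 3 with the KD label was left out, and 1 when library 1 or 3 of NC was. At 24 h it was 3, 2 or 0 when library 1, 2 or 3 with the KD label was left out, and 3 when library 1 or 2 of NC was. Averaged over the 3 times, 49 differed (16.1%, beside 9.99%), 17 higher and 32 lower with the KD label, beside 4.01% and 5.98%, and 42 to 51 did so with any 1 library left out. The median log2 difference was -0.05 over the 304 and -0.01 over all genes.

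Trp53cor1, or lincRNA-p21, a p53-induced RNA of the Cdkn1a locus, had the largest difference between the lines at control. It lies on the minus strand of chr17:29057430-29079179, starts 11.8 kb from Cdkn1a, which encodes the cell cycle inhibitor p21, and shares 44.1% of its exon bases with AC167363.1 and Gm27599 on the other strand, so that reads there cannot be assigned without strand. With the KD label it had 2.13, 1.67 and 3.73 CPM in controls, 13.3, 12 and 6.07 CPM at 12 h and 7.5, 8.97 and 5.7 CPM at 24 h. NC libraries had 17.5, 14 and 16.9 CPM in controls, 11.2, 12.9 and 14.2 CPM at 12 h and 21.2, 21.8 and 18.2 CPM at 24 h. The lines did not overlap at control or at 24 h, and overlapped at 12 h. It was lower with the KD label by -2.70 ± 0.32 log2 at control (edgeR adjusted p = 1.81e-05), a call kept in every alternative run, and by -1.45 ± 0.28 at 24 h (edgeR adjusted p = 0.0102), which was lost when library 1 or 3 with the KD label or all libraries numbered 2 were left out, with adjusted p up to 0.0675.
Under oxyhemoglobin Trp53cor1 rose with the KD label by 2.08 ± 0.32 log2 at 12 h (edgeR adjusted p = 6.45e-05) and 1.58 ± 0.33 at 24 h (edgeR adjusted p = 0.00259, and 0.112 without the libraries numbered 2), and in NC its log2 fold change at 12 h was -0.33 ± 0.27 (edgeR adjusted p = 0.515). The 12 h response differed between the lines by 2.41 ± 0.42 log2 (edgeR adjusted p = 0.019), the only such difference among the 304 (0.329%, beside 0.075% of all genes). Its adjusted p was 0.0828 or 0.0768 when library 1 or 2 of the KD controls was left out, 0.0568 or 0.0589 when library 1 or 2 of KD at 12 h was, 0.0692 when library 1 of NC at 12 h was, 0.296 without all libraries numbered 2 and 0.0758 in a fit of the 4 groups compared alone. At 24 h the response of 0 lincRNAs differed between the lines by edgeR (beside 0.0313% of all genes), with 23 at an unadjusted p under 0.05 and 0 by DESeq2. Of the 7 tested genes on the p53 and stress list, which holds Trp53cor1, Norad, Lncpint, Neat1 and Pvt1, none but Trp53cor1 passed against control in either line. With the block, Norad rose at 12 h in both lines, and Pvt1 fell by 0.39 log2 at 12 h with the KD label (edgeR adjusted p = 0.0215). In NC at 12 h the block called 1 gene of the list higher and 1 lower. Lncpint fell with the block at 24 h by 0.31 with the KD label and 0.51 in NC (edgeR adjusted p = 0.0463 and 0.00165). Cdkn1a was not called against control in either line, with log2 fold changes of 0.71 at 12 h with the KD label and -0.57 in NC.

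Of the lincRNAs higher with the KD label, Neat1 averaged 0.71 ± 0.12 log2 higher over the 3 times (edgeR adjusted p = 0.000278). It had 3409, 3332 and 3048 CPM with the KD label against 2156, 2436 and 1813 CPM in NC at control, and 3305, 3468 and 3213 against 1668, 2085 and 1438 CPM at 12 h, with no overlap at either time, and 4508, 4255 and 4631 against 3943, 3187 and 1951 CPM at 24 h, again with none. Morrbid, an RNA known to lower Bcl2l11 in short-lived mouse myeloid cells, lies 15.8 kb from Bcl2l11, which encodes the death-promoting protein Bim. Morrbid averaged 0.57 ± 0.09 log2 higher with the KD label (edgeR adjusted p = 0.000262), with 77.7, 80.7 and 65.5 CPM against 46.2, 54.8 and 42.7 CPM in NC at 12 h. Bcl2l11 averaged 0.50 log2 lower with the KD label (adjusted p = 0.00026), and was not called against control in either line. A link between Morrbid and Bcl2l11 was not tested. Lncpint, a p53-induced RNA, averaged 0.50 ± 0.10 higher. C030034L19Rik, on chr3:9403064-9437233, had 11.1, 10.5 and 12.2 CPM with the KD label against 4.57, 4.77 and 2.65 CPM in NC at control. It was 1.48 ± 0.28 log2 higher there (edgeR adjusted p = 0.00397) and 1.08 ± 0.15 over the times. It shares 43.6% of its exon bases with Zfp704 on the other strand, which did not differ on average (0.05 log2, adjusted p = 0.748). Gm29367, Gm44257, Gm37306, Gm49654 and Gm49767 averaged 1.08 ± 0.27, 1.08 ± 0.20, 0.99 ± 0.17, 0.96 ± 0.15 and 0.80 ± 0.15 log2 higher. Gm29367 is in the set through the KD label at 12 h, so its value is a description with no test.

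Of those lower with the KD label, 4833427F10Rik had 62.7, 57.9 and 61.6 CPM with the KD label against 137, 98.8 and 113 CPM in NC at control, and 79.4, 60.0 and 66.6 against 153, 129 and 133 CPM at 12 h. At 24 h it had 147, 129 and 135 CPM with the KD label against 127, 143 and 181 CPM in NC, where the groups overlapped. It was lower by -0.93 ± 0.17 log2 at control and -1.01 ± 0.17 at 12 h (edgeR adjusted p = 0.00221 and 0.00208), and both calls held in every alternative run. Gm36913, Lncbate10, Gm30198, 9830132P13Rik and Gm31522 averaged -1.73 ± 0.32, -1.43 ± 0.22, -1.37 ± 0.26, -1.30 ± 0.25 and -1.20 ± 0.27 log2 with the KD label relative to NC. 9830132P13Rik had 2.27, 1.88 and 2.14 CPM with the KD label against 10.6, 9.57 and 8.07 CPM in NC at 24 h, with no overlap. It is in the set through NC at 24 h, so this and its average are descriptions with no test. Gm36913 had 5.41, 6.46 and 1.9 CPM with the KD label against 29.5, 23.3 and 12.3 CPM in NC at 24 h. The library numbered 3 was the lowest in both.

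For abundant structural lincRNAs the call depended on whether the library number was a block. Without it, Xist and Malat1 were called in no comparison, nor were Jpx and Ftx, neighbours of Xist, Norad, or the hosts of small nucleolar RNAs Snhg6, Snhg10, Snhg15, Snhg20 and Epb41l4aos. Malat1 had log2 fold changes of 0.35 ± 0.25 at 24 h with the KD label and 0.52 ± 0.25 in NC without the block, and of 0.36 ± 0.07 and 0.51 ± 0.07 with it (edgeR adjusted p = 8.5e-05 and 2.31e-07). At 12 h the blocked values of Malat1 were 0.18 ± 0.07 with the KD label and 0.20 ± 0.07 in NC (edgeR adjusted p = 0.0432 and 0.0259). In each same-numbered pair of libraries Malat1 was higher at 24 h than in the control, in 6 of 6 pairs. Xist had 0.22 ± 0.24 with the KD label and -0.01 ± 0.24 in NC at 24 h, and with the block it was higher at 24 h with the KD label (0.24 ± 0.08, edgeR adjusted p = 0.0243) and lower at 12 h in NC (-0.30 ± 0.08, edgeR adjusted p = 0.0046). Norad (2900097C17Rik) had 921, 747 and 861 CPM at 12 h with the KD label against 683, 575 and 692 CPM in controls, and 930.2, 781 and 969 against 771, 640.3 and 735 CPM in NC, with log2 fold changes of 0.38 ± 0.15 and 0.32 ± 0.15, and of 0.37 ± 0.08 and 0.32 ± 0.08 with the block (edgeR adjusted p = 0.000144 and 0.00127). Epb41l4aos passed with the block with the KD label, lower by -1.14 ± 0.35 at 12 h and -0.93 ± 0.35 at 24 h (edgeR adjusted p = 0.011 and 0.0489). Of the 15 tested snoRNA hosts on the list, 5 among the 304, 2 fell with the KD label and 1 in NC at 12 h, and none of them was a lincRNA of the set: Zfas1 fell in both lines, by 0.96 with the KD label and 0.46 in NC, and Snhg16 with the KD label by 0.65. Of all genes, 8.06% with the KD label and 5.55% in NC were called lower at 12 h. With the block 4 of the 15 hosts fell with the KD label and 1 in NC at 12 h. Of the 9 tested genes on the nuclear and chromatin list, 0 passed against control at either time in either line by edgeR without the block, with 0 and 1 at an unadjusted p under 0.05 at 12 h and 24 h in each line. With it, 1 and 2 rose with the KD label at 12 h and 24 h, and in NC 1 rose and 2 fell at 12 h and 1 rose at 24 h. Of all genes, the fit without the block called 16% and 9.58% with the KD label and 12.2% and 7.57% in NC. With the block these shares were 28.7% and 21.5%, and 24.7% and 18.9%, at 12 h and 24 h.

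The 304 lie on 21 chromosomes, all matched GENCODE M21 by gene ID, and 300 are typed lincRNA there. They have a median of 3 exons, and 40 have a single exon. Despite the name, 49 overlap a coding gene on the opposite strand and 10 on the same strand. A further 81 are divergent from their nearest coding gene, 49 convergent, 60 downstream and 55 upstream on its strand, and 154 lie within 5 kb of it. Reads over the 42 that share more than 10% of their exon bases with another gene can come from either.

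At 12 h, lincRNAs and their nearest coding genes often moved the same way. With the KD label at 12 h, 29 rising lincRNAs had a tested neighbour, of which 13 were called higher and 1 lower, and 23 falling ones had 1 called higher and 8 lower. Of the 194 neighbours of lincRNAs that were not called, 30 were higher and 12 lower. In NC at 12 h the neighbours of 26 rising lincRNAs included 10 higher and 1 lower. Those of 21 falling ones included 1 higher and 3 lower, and those of 199 not called 18 higher and 8 lower. Of all genes, 7.93% were called higher and 8.06% lower at 12 h with the KD label, and 6.69% and 5.55% in NC. At 24 h, 26 rising lincRNAs with the KD label had 13 neighbours higher and 1 lower, and 15 falling ones 1 and 1. In NC, 34 rising ones had 10 higher and 1 lower, and 8 falling ones 0 and 1. Across pairs, Pearson's r of the 2 log2 fold changes at 12 h was 0.53 with the KD label and 0.44 in NC for the 136 pairs within 5 kb, and 0.49 and 0.34 for the 110 pairs farther apart. Both genes of a pair come from the same libraries, some pairs share reads, and some lincRNAs share a neighbour, as with Ctnnb1. Genes are also not independent replicates, so these are descriptions with no test, and the effect of distance was not tested.

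**Figure D5:**
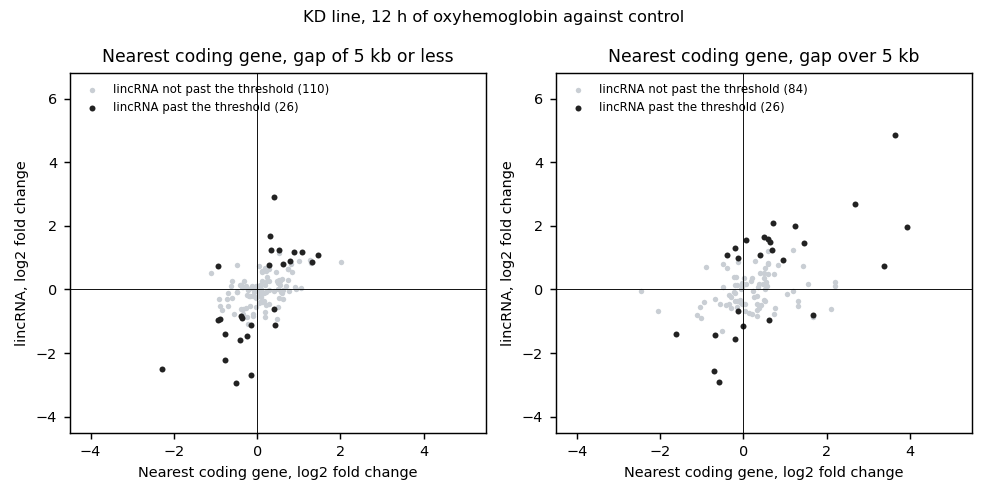
Log2 fold change at 12 h in cells labelled KD of lincRNAs (y axis) against their nearest coding gene (x axis), for the 136 pairs with a gap of at most 5 kb (left) and the 110 farther apart (right); black points are lincRNAs past the threshold. Black points lie mostly at the upper right and lower left.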

How the data were processed

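RNA of 18 BV2 libraries was read as 2 tables of the whole series, whose columns were matched to samples by title (0 columns were left unmatched). The deposited counts are whole reads per gene, not normalized, made by the authors with bcl2fastq, HISAT2 2.2.0, featureCounts and DESeq2 on GRCm38, per the submitters' processing notes. The deposited TPM divide the same counts by the deposited gene length, and were used for levels between genes. The library kit tagments cDNA, per the labels' protocols, and the sources used here do not say whether strand was kept. Library totals of 4361313 to 6008810 counts limit the low lincRNAs most.

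Counts were tested with edgeR 4.0.16 (limma 3.58.1, R 4.3.3): TMM factors, filterByExpr with a minimum count of 10, robust quasi-likelihood fit of all 18 libraries with 1 mean per group, and Benjamini-Hochberg adjustment over the 15996 genes tested. The standard error is the absolute log2 fold change divided by the square root of F. Members and gene lists were chosen with earlier results of these data known. Named are all members on the gene lists, up to 6 called members each way per comparison with the largest fold change and, for groups compared directly, no overlap and at least 1 CPM, those of lowest adjusted p in an interaction, the 10 highest by TPM, and the nearest coding genes; names outside this rule (the 20 lincRNAs called in all 4 comparisons with control, the chromosome 9 neighbours, Ccl2, Ccl7 and Acvr2b, Mir22hg and other listed genes that are not members) were chosen after their values were seen. Positions are from GENCODE M21, promoters and microRNAs from RefSeq (GRCm38.p6). Alternatives were RLE factors, totals without CT010467.2, no filter, DESeq2 1.42.0, the library number as a block, only the groups compared, and each library left out; leaving out all libraries numbered 2, and leaving out the 20 members that reached the limit through their highest group, were added after the data were seen. Same-numbered libraries deviated together (lowest correlation of deviations from the group means over 0.1 in every pair) in the 6 comparisons of times and in that of the lines at 12 h, from the data and not the labels. Within each group the libraries differed by more than sampling noise, by a chi-square of 4.5 to 17.3 for each degree of freedom. The fit was tested on simulated counts.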

Additional observations from a re-analysis of the deposited data

Results flagged for a closer look

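The 12 h response of Trp53cor1 differed between the lines, by 2.41 on the log2 scale with the KD label relative to NC (edgeR adjusted p = 0.0190), and the difference came with low controls under the KD label.

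In 2 further lincRNAs all libraries of one line moved opposite to all libraries of the other, without a called difference. 1700086P04Rik at 12 h had 3.23, 4.05 and 4.19 CPM with the KD label, against 1.70, 2.13 and 2.07 CPM in controls, and 3.14, 2.33 and 1.38 CPM in NC, against 4.78, 3.78 and 4.27 CPM in controls, and its responses differed by 1.85 log2 (edgeR adjusted p = 0.276). Gm34921 at 24 h had 7.5, 7.92 and 5.70 CPM with the KD label, against 12.8, 11.1 and 8.08 CPM in controls, and 8.08, 9.57 and 8.62 CPM in NC, against 4.37, 7.40 and 5.90 CPM in controls, and its responses differed by -1.15 log2 (edgeR adjusted p = 0.889).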

How the results depend on the processing

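RLE factors, library totals without CT010467.2, no filter on low counts and leaving out the 20 lincRNAs that entered through their highest group left each of the 12 counts of called lincRNAs within 1.5 times its value. With the library number as a replicate block the counts were 111 (KD label) and 97 (NC) for 12 h against control, 88 and 87 for 24 h, 33 and 41 for 24 h against 12 h, 45 for the lines at 12 h, 34 at control, 42 at 24 h and 89 on average, and 4 and 1 for the line differences in response at 12 h and 24 h. For the lines at control, at 24 h and on average, the shares were 11.2%, 13.8% and 29.3%, beside 9.35%, 9% and 24.4% of all genes. For the response differences they were 1.32% and 0.329%, below the 2.06% and 1.21% of all genes. The pairing did not hold by the stated check for the lines at control, at 24 h and on average, nor for the response differences. Without the libraries numbered 2 the counts were 45 for the KD label at 12 h, 27 at 24 h and 9 for 24 h against 12 h, 26 for NC at 24 h and 4 for 24 h against 12 h, 3 for the lines at control, 1 at 24 h and 0 for the 12 h response difference. DESeq2 gave 15 for the lines at control and at 24 h and 17 for NC 24 h against 12 h. Fits of only the groups compared gave 4 for the lines at control, 3 at 12 h, 5 for NC 24 h against 12 h, 31 for NC at 24 h and 0 for the 12 h response difference; the cause of these changes was not tested, though several hold fewer libraries.

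With 1 library left out, the counts were 49 to 59 and 47 to 53 for 12 h against control with the KD label and in NC, 35 to 43 and 30 to 35 for 24 h, and 9 to 12 and 3 to 7 for 24 h against 12 h. For the lines they were 3 to 8 at control, 1 to 8 at 12 h, 0 to 6 at 24 h and 42 to 51 on average, and 0 to 1 for the 12 h response difference. Of 126 results for named lincRNAs, 81 passed in every alternative run, 45 lost the call in at least 1, and 0 changed sign. Groups of 3 at this depth leave folds of lincRNAs with few control counts open to wide intervals.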
